A study of Mus musculus with 12 samples.

Results

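The serine/threonine kinase circRNAs described here are circular RNAs made from genes of the MAPK cascade, the cyclin-dependent kinases, the casein kinases and related families in 4 mouse cell lines. They were picked by the symbol of the host gene, the gene a circRNA is spliced from. A circRNA was kept when its single named host had a symbol of the Mapk, Map2k, Map3k, Map4k, Cdk, Stk, Csnk, Prk, Camk, Nek or Wnk series. Stk39 and Prkdc were left out, and no measured value entered the choice. The pattern found 209 circRNAs of the 13474 listed, from 73 hosts of 4455. The hosts are 22 genes of the MAPK cascade, 12 cyclin-dependent kinases, 6 casein kinases, 19 genes with Prk symbols (mostly protein kinases A, C, D and G and AMP-activated kinase), 2 calmodulin-dependent kinases, 4 NEK genes, Wnk1 and 7 STK genes. Of the 73 hosts, 68 were taken as kinases by their symbols, and whether each encodes an active kinase was not checked. The other 5 are known not to be catalytic kinase subunits: Prkag2, Prkar2a and Prkar2b are regulatory subunits, Prkcsh is the beta subunit of glucosidase II, and Prkrir is an older symbol that the annotation lists as Thap12.

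The study used 4 lines, with 3 libraries of each: the breast cancer line 4T1 and the breast epithelial line Eph4-ev, and the melanoma line B16F10 and the melanocyte line Melan-a. CircRNAs were sequenced after RNase R treatment, which digests linear RNA, and were counted as reads that span the back-spliced junction, where the end of a downstream exon is joined to the start of an upstream exon. The design sets 4T1 against Eph4-ev and B16F10 against Melan-a, so it asks which circRNAs differ between a tumour cell line and a non-tumour line of the same tissue. Each kind of cell is represented by 1 line, and tumour state cannot be told apart from any other difference between these lines. The labels do not say whether libraries came from separate cultures, so p-values measure the spread between these libraries, which may be technical. No treatment or genotype is given for any line. In RNA from whole cultures, fewer cells that make a circRNA and less of it per cell cannot be told apart.

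Serine/threonine kinases pass signals by moving a phosphate onto serine or threonine residues of other proteins. In the MAPK cascade, kinases activate each other in tiers, with Map4k and Map3k genes at the top, Map2k genes below them and Mapk genes at the end. Cyclin-dependent kinases drive the cell cycle or, as Cdk8, Cdk12, Cdk13 and Cdk19 do, act on RNA polymerase II and its partners. A circRNA arises when the splicing machinery joins exons of such a gene backwards, and most circRNAs of this kind hold exons from the 5′ part of the gene.

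Both tables named 44 of the hosts with reads, 19 had reads in the mammary table alone and 9 in the melanocyte table alone. Prkd2 was listed with 0 reads in every library. The mammary table held reads for 150 of these circRNAs from 63 hosts. The melanocyte table listed 199 from 71 hosts, of which 131 from 53 hosts had reads and 68 had 0 in all 6 libraries. Both tables held reads for 84 of the circRNAs.

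The junctions that carry most of the results below are printed here because each is the only stretch of sequence that sets the circRNA apart from the linear transcript of its host. Each line reads 5′ to 3′ on the strand of the gene and comes from the GENCODE M21 transcripts for the mouse build mm10. The 15 bases in capitals are the end of the last exon, and the 15 bases in lower case are the start of the first exon.
Map2k5 exons 8 to 11: CAGAATTCATGGATGatgaatgaacaagac
Map4k3 exons 9 to 12: GATGATGACCCAGAGgatggccccagaagt
Nek7 exons 3 to 5: TCCAGAATGATAAAGaaggcattacggcca
Prkd1 exons 3 to 4: GATGAGCCTTTACTGcttcagccaccttcg
Cdk12 exons 5 to 7: GGCAAGAAAAAATAGatagcagcagcaggg
Prkce exons 4 to 6: GAAACCCCTGACGAGcccctaaagacaatg
Cdk8 exons 2 to 4: TTGCACAGGGATTTGgaaggacgataaaga
Cdk8 exons 3 to 4: TTGCACAGGGATTTGttactccgagagctt
Cdk19 exons 2 to 4: CTCCACAGGGACCTGaaaagatgaaaagga
Cdk19 exons 3 to 4: CTCCACAGGGACCTGcttttgagagaactg

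On mm10, the Map2k5 circRNA spans chr9:63293524-63322267 on the minus strand, with 256 bases of spliced sequence from codons 161 to 246 of 448. The Map4k3 circRNA spans chr17:80644132-80644845 on the minus strand and holds 388 bases from codons 177 to 306 of 894. The Nek7 circRNA, at chr1:138532737-138544343 on the minus strand, holds 315 bases from codons 20 to 124 of 302. The Prkd1 circRNA lies at chr12:50425439-50428234 on the minus strand with 293 bases from codons 133 to 230 of 918. The Prkce circRNA lies at chr17:86474317-86476891 on the plus strand with 281 bases from codons 138 to 231 of 737. The Cdk12 circRNA, at chr11:98263470-98267858 on the plus strand, matched exon ends only of a transcript annotated as noncoding, over 322 bases. The Cdk8 circRNAs start at position 146259505 (exon 2) or 146268215 (exon 3) of chromosome 5 and end at 146271735, on the plus strand. Those of Cdk19 start at 40394325 (exon 2) or 40434304 (exon 3) of chromosome 10 and end at 40436212, also on the plus strand.

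Libraries held 15572 to 44625 junction reads in 4T1, 50648 to 56649 in Eph4-ev, 16697 to 20011 in B16F10 and 25072 to 33557 in Melan-a, so each tumour line was read less deeply than its non-tumour line. The third 4T1 library, with 44625 reads, stood apart from the other two, which had 15572 and 17735. The kinase circRNAs took 250 to 683 of these reads per 4T1 library, 694 to 932 per Eph4-ev library, 214 to 267 per B16F10 library and 324 to 467 per Melan-a library. CircRNAs of melanocyte marker genes such as Tyr, Tyrp1 and Dct were read from 8 of 12 hosts in B16F10 and 9 of 12 in Melan-a, against 0 in 4T1 and 1 (Mitf) in Eph4-ev. Epithelial hosts were read from 4 of 11 in both mammary lines (Epcam, Cdh1, Esrp1 and Grhl2), with the keratin genes at 0, and immune hosts at 0 in all 4 lines. Of 11 mesenchymal hosts, 0 were read in 4T1, against 1 in Eph4-ev (Zeb1, 118 to 177 RPM per library). Vim was read in B16F10 (99.9 to 120 RPM), against Vim and Zeb2 in Melan-a (summed 0 to 359 RPM). The melanocyte hosts summed to 10978 to 12743 RPM in B16F10, against 5525 to 9476 RPM in Melan-a. The part of these hosts in the kinase results was not tested. Scaling by total reads in place of composition factors moved the median log2 fold of all mammary hosts to 0.04 from -0.09, and that of all mammary circRNAs to -0.01 from -0.22. It also changed the split of all called mammary circRNAs to 142 higher and 176 lower, from 112 and 213, and that of all called melanocyte hosts to 34 and 32, from 25 and 39.

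The kinase circRNAs were mostly short circles of a few exons. In the mammary lines the 148 that could be placed on annotated exons had a median of 3 exons and 415.5 spliced bases, against 3 exons and 458 bases for 9154 other circRNAs. Of these, 59 (39.9%) began at exon 2, against 35.04% of the others, and 124 lay within coding sequence alone. The intron before the first exon had a median of 12057 bases, against 8229 for the others. A spliced length that is a multiple of 3, which would keep the reading frame around the circle, was seen in 43 of the 124 coding circRNAs (34.7%), against 39.3% of the others. In the melanocyte lines it was seen in 30 of 112 (26.8%), against 39.0%. No test was made of these shares, since circRNAs of 1 host overlap in sequence. The longest kinase circRNA spliced to 2624 bases, and 27 of the 63 mammary hosts and 21 of the 53 melanocyte hosts had a single circRNA with reads.

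As a whole, the kinase circRNAs took 1.26% to 1.95% of the junction reads in each of the 12 libraries. Junction reads scaled to the total of the library (RPM, per 1000000) summed to 16956 ± 2242 in 4T1, against 15056 ± 1571 in Eph4-ev (SD, n = 3 each; exact two-sided permutation test, p = 0.4). Without Cdk8, the host with the most reads, the 4T1 sums of 14128, 17198 and 13580 RPM all lay above the Eph4-ev sums of 11373, 12057 and 13358 RPM (exact permutation p = 0.1). Cdk8 was picked by its reads in these data and was itself lower in 4T1 (1988 against 2793 RPM). Leaving it out therefore raises the 4T1 sums relative to the Eph4-ev sums by construction. The sums of all members were 13090 ± 398 in B16F10 and 13385 ± 500 in Melan-a (p = 0.5, same exact test). With 3 libraries against 3, the smallest p this test can give is 0.1. RPM is a share of the reads in the table, not a measure of how much circular RNA a cell holds. Among the groups, the cyclin-dependent kinases took the most reads in each line, with 5551 ± 1351 RPM in 4T1 against 4599 ± 586 RPM in Eph4-ev, and 3758 ± 551 RPM in B16F10 against 5239 ± 543 RPM in Melan-a. The MAPK cascade came next in 4 of 4 lines. NEK hosts summed to 706, 1635 and 1210 RPM in 4T1 libraries and to 474, 247 and 468 RPM in Eph4-ev libraries, with no overlap (exact permutation p = 0.1). The Prk sums did not overlap either and were lower in 4T1, at 1027, 846 and 1255 RPM, against 1323, 1589 and 2070 RPM in Eph4-ev (exact permutation p = 0.1). In melanocyte lines the sums that did not overlap were those of the cyclin-dependent kinases, lower in B16F10, and of the MAPK cascade and the calmodulin-dependent kinases, higher in B16F10 (exact permutation p = 0.1 for each). For the MAPK cascade the gap was narrow, with a lowest B16F10 sum of 3128 RPM and a highest Melan-a sum of 3031 RPM. In that B16F10 library 1 read was worth 59.0 RPM. For the calmodulin-dependent kinases the gap was less than 1 read in the same library, with 472 RPM against a highest Melan-a sum of 439 RPM. Nearly all reads of that group were those of Camk2d. The p-values of the groups were not adjusted for the number of groups compared.

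**Figure D1:**
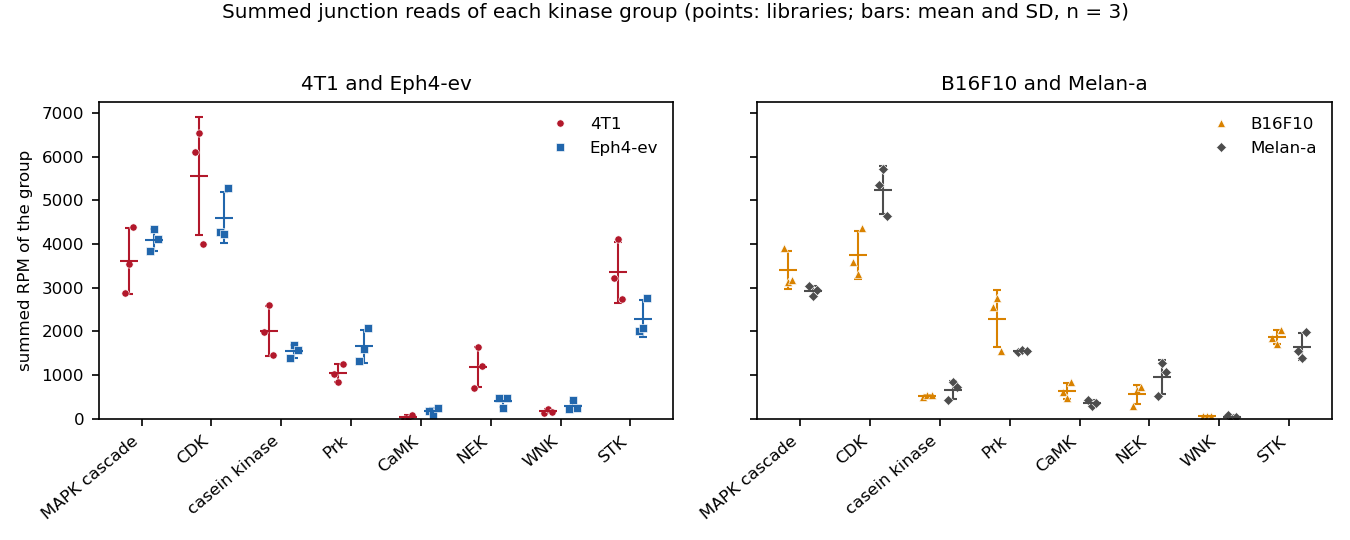
Summed RPM of junction reads (vertical axis) for each kinase group, with 4T1 left of Eph4-ev in the left panel and B16F10 left of Melan-a in the right panel. Points are libraries, and bars give the mean and SD of 3 libraries; the 3 B16F10 sums of the cyclin-dependent kinases (3305 to 4372 RPM) lie below the 3 Melan-a sums (4651 to 5722 RPM).

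Between 4T1 and Eph4-ev, 3 kinase hosts rose (Map2k5, Cdk14 and Nek7) and 3 fell (Map4k3, Map4k2 and Prkd1) in 4T1. In 4 of the 6, reads were found in 1 line alone: Map2k5 reads were found in each 4T1 library and in no Eph4-ev library, and Map4k3, Map4k2 and Prkd1 reads in each Eph4-ev library and in no 4T1 library. The host test (edgeR quasi-likelihood F test on reads summed per host, Benjamini-Hochberg adjustment over all 1515 hosts tested, called at an adjusted p under 0.05) covered 34 kinase hosts. The 6 called are 17.6% of these 34, and 17.5% of all hosts tested were called (6.86% higher and 10.6% lower), so the share of kinase hosts called is that of the table. At an unadjusted p under 0.05 there were 11. The share of all hosts at that threshold was not counted, so the 11 cannot be set against the table. The median log2 fold of the 34 hosts was 0.15, against -0.09 for all hosts tested, with 20 folds above 0 and 14 below. The other 29 kinase hosts with reads had too few to enter the test.

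**Figure D2:**
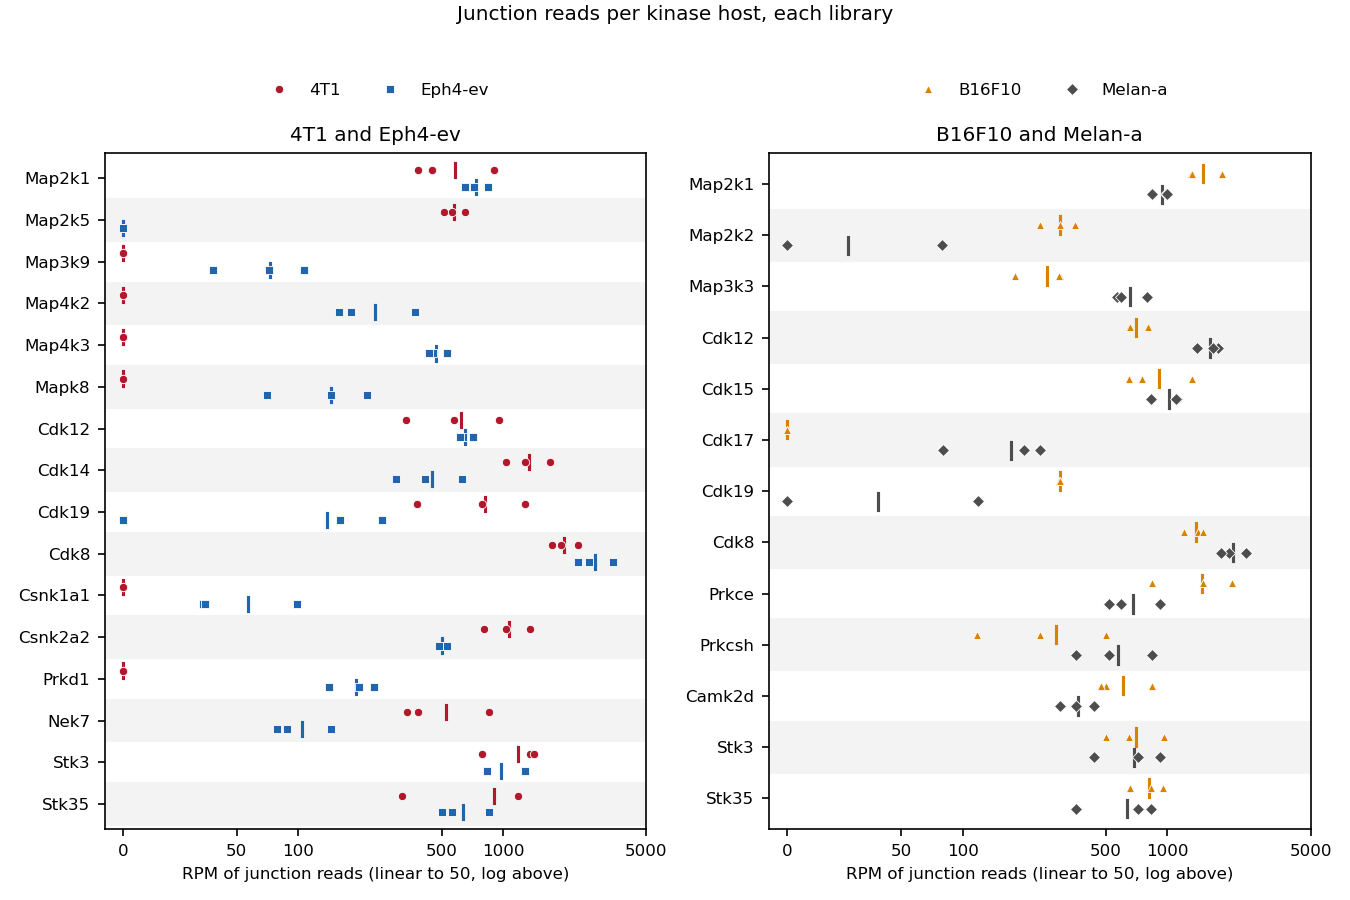
RPM of junction reads per kinase host (horizontal axis, linear to 50 and logarithmic above) in each library, for the hosts named in the text. 4T1 lies above Eph4-ev and B16F10 above Melan-a within each row, and the short vertical lines are means of 3 libraries. Map2k5 lies above 500 RPM in the 4T1 libraries and at 0 in the Eph4-ev libraries, and Map4k3 shows the opposite arrangement.

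In the MAPK cascade, Map2k5 encodes MEK5, the kinase that activates ERK5. Its 1 circRNA, of exons 8 to 11, had 8, 10 and 29 reads in the 4T1 libraries and 0, 0 and 0 in the Eph4-ev libraries. Its level was 576 ± 68.8 RPM in 4T1, against 0 in Eph4-ev (SD, n = 3 each). Against a floor of 3 reads over the Eph4-ev libraries, it was at least 32.7-fold higher in 4T1 (adjusted p = 0.000818). The call held under all 14 alternative fits run, with adjusted p between 3.4e-06 and 0.0214. The same circRNA had 5, 0 and 2 reads in B16F10, against 0 in the 3 Melan-a libraries, too few for the test.

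Map4k3 encodes GLK, a kinase at the head of the cascade that also acts in amino acid signalling. Its exon 9 to 12 circRNA had 0 reads in the 4T1 libraries and 23, 30 and 24 reads in the Eph4-ev libraries (472 ± 51.1 RPM in Eph4-ev). It was at least 12.3-fold lower in 4T1 (adjusted p = 0.00239), and this call was lost only without the second Eph4-ev library (adjusted p = 0.0523; lowest over the alternatives 2.3e-05). In the melanocyte lines Map4k3 had 0, 1 and 1 reads in B16F10, against 17, 0 and 1 reads in Melan-a over 3 circRNAs, so 1 Melan-a library held nearly all of them. Map4k2 encodes germinal centre kinase, a close relative. Its 3 circRNAs share a start at exon 4 and summed to 0 reads in 4T1 and to 8, 21 and 10 reads in Eph4-ev, at least 6.22-fold lower in 4T1 (adjusted p = 0.0201). The Map4k2 call was lost under 4 of 12 alternatives, with adjusted p between 0.0112 and 0.139, including those without the third 4T1, the second Eph4-ev or the third Eph4-ev library. With a minimum count of 10 and after thinning to equal depth, Map4k2 was not tested and so not called.

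Mapk8, which encodes the stress kinase JNK1, had 0 reads in 4T1, against 11, 4 and 8 reads in Eph4-ev. Map3k9, a mixed lineage kinase upstream of JNK, had 0 reads in 4T1, against 2, 6 and 4 in Eph4-ev. Neither entered the test, and the bounds are at least 3.67-fold and at least 1.91-fold lower in 4T1. Map2k1, which encodes the ERK activator MEK1, had 6, 16 and 20 reads in 4T1, against 33, 48 and 40 in Eph4-ev (log2 fold -0.52 ± 0.44 as SE, with adjusted p = 0.479). The lines overlapped in RPM.

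Of the cyclin-dependent kinases, 6 hosts were tested and 1 rose. Cdk14, a partner of cyclin Y that acts in Wnt signalling, had 16, 30 and 57 reads in 4T1, against 21, 17 and 35 in Eph4-ev. In RPM that is 1332 ± 335 in 4T1 and 448 ± 168 in Eph4-ev, with no overlap (log2 fold 1.43 ± 0.40 as SE, with adjusted p = 0.0229). The reads came from 7 circRNAs, of which the exon 3 to 4 circRNA had 13, 24 and 24 reads in 4T1, against 12, 11 and 25 in Eph4-ev (log2 fold 1.33 ± 0.51 as SE, with adjusted p = 0.105). The Cdk14 host call was lost under 5 of 14 alternatives, with adjusted p between 0.00579 and 0.145. Those were a fit with no filter and those without the second or the third 4T1 library or the first or second Eph4-ev library. Cdk12, which phosphorylates the tail of RNA polymerase II, had 9, 17 and 15 reads in 4T1, against 36, 36 and 34 in Eph4-ev. Its RPM overlapped, at 624 ± 314 in 4T1 and 653 ± 51.6 in Eph4-ev (log2 fold -0.28 ± 0.46 as SE, with adjusted p = 0.736).

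The remaining calls in the mammary lines fell to 1 NEK and 1 Prk host. Nek7, a kinase of the mitotic spindle that is also part of NLRP3 inflammasome activation, had 6, 6 and 38 reads in 4T1, against 4, 5 and 8 in Eph4-ev. In RPM that is 525 ± 284 in 4T1 and 104 ± 35.2 in Eph4-ev, with no overlap (log2 fold 2.25 ± 0.69 as SE, with adjusted p = 0.0366). The third 4T1 library held 38 of the 50 4T1 reads, and without it the log2 fold was 1.55 (adjusted p = 0.267). The other two 4T1 libraries, at 385 and 338 RPM, still lay above the Eph4-ev libraries, at 79.0, 88.3 and 144 RPM. The Nek7 call was lost under 6 of 14 alternatives, among them those without each Eph4-ev library (adjusted p between 0.0199 and 0.267 over the alternatives). Nek9, which activates Nek7, had 2, 17 and 10 reads in 4T1, against 4, 5 and 10 in Eph4-ev, with overlapping RPM (log2 fold 1.70 ± 0.84 as SE, with adjusted p = 0.182). Prkd1, which encodes protein kinase D1, an effector of diacylglycerol, had 0 reads in 4T1, against 10, 8 and 13 in Eph4-ev. It was at least 4.95-fold lower in 4T1 (adjusted p = 0.0307), a call lost under 5 of 12 alternatives, among them those without the third 4T1 library or each Eph4-ev library (adjusted p between 0.0295 and 0.123). With a minimum count of 10 and after thinning to equal depth, Prkd1 was not tested and so not called.

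Of the casein kinases and the STK hosts none was called by edgeR, DESeq2 or limma-voom, out of 4 and 5 tested. By edgeR, 1 host in each had an unadjusted p under 0.05. Csnk2a2, a catalytic subunit of casein kinase 2, had 16, 24 and 36 reads in 4T1, against 25, 30 and 27 in Eph4-ev, or 1062 ± 275 RPM against 503 ± 23.3 RPM, with no overlap (log2 fold 0.90 ± 0.39 as SE, with adjusted p = 0.124). Csnk1a1, which phosphorylates beta-catenin, had 0 reads in 4T1, against 5, 2 and 2 in Eph4-ev, at least 1.44-fold lower in 4T1 and not tested. Stk3, which encodes the Hippo kinase MST2, had 21, 25 and 35 reads in 4T1, against 42, 47 and 71 in Eph4-ev (log2 fold 0.08 ± 0.35 as SE, with adjusted p = 0.919). Stk35 had 5, 21 and 53 reads in 4T1, against 43, 32 and 28 in Eph4-ev (log2 fold 0.42 ± 0.46 as SE, with adjusted p = 0.596). The lines overlapped for both STK hosts, and the sign of the Stk3 fold turned under 5 of 14 alternatives.

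More kinase hosts were found in Eph4-ev alone than in 4T1 alone. By the criterion of at least 2 reads in each library of 1 line and 0 in the other, 6 of 63 kinase hosts (9.52%) were found in Eph4-ev alone, against 3.51% of all 3617 hosts. In 4T1 alone there was 1 of 63 (1.59%), against 0.719% of all hosts. Of single circRNAs, 8 of 150 (5.33%) were found in Eph4-ev alone, against 3.52% of all 9492, and 1 of 150 in 4T1 alone, against 0.548%. The 4T1 libraries were the shallower ones (15572 to 44625 reads, against 50648 to 56649 in Eph4-ev), and the part of depth in these counts was not tested.

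At the level of single junctions, 38 kinase circRNAs were tested in the mammary lines and 5 were called (13.2%, against 17.4% of all 1869 circRNAs tested). Those higher in 4T1 were the Map2k5, Nek7 and Cdk19 circRNAs (7.89%, against 5.99% of all), and those lower were the Map4k3 and Prkd1 circRNAs (5.26%, against 11.4%). The Nek7 circRNA of exons 3 to 5 had 5, 6 and 35 reads in 4T1, against 4, 5 and 6 in Eph4-ev (log2 fold 2.22 ± 0.69 as SE, with adjusted p = 0.0474). It was lost under 11 of 14 alternatives, and its reads were mostly from the third 4T1 library. The Prkd1 circRNA of exons 3 to 4 had 0 reads in 4T1, against 9, 8 and 9 in Eph4-ev, at least 4.15-fold lower (adjusted p = 0.035), and was lost under 9 of 12 alternatives, including those that left out any 1 library. The median log2 fold of the 38 was 0.11, against -0.22 for all circRNAs tested.

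**Figure D3:**
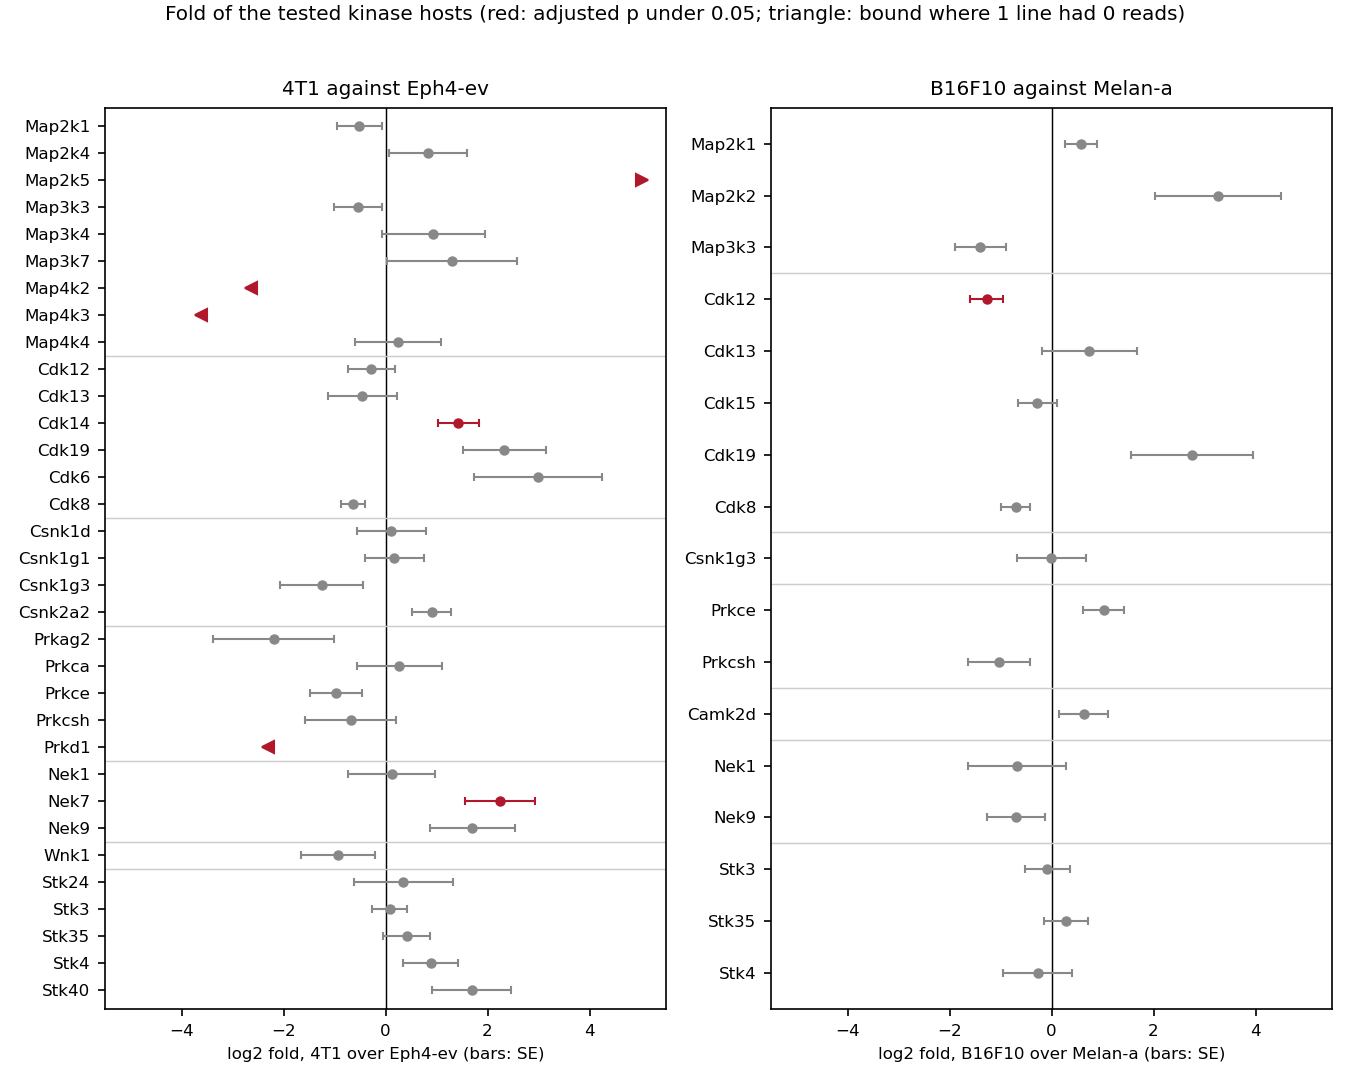
Log2 fold of the tested kinase hosts that are reported (horizontal axis), 4T1 over Eph4-ev on the left (33 of 34 hosts) and B16F10 over Melan-a on the right (17 of 18 hosts), grouped by family with thin lines between groups. Circles and bars give the fitted fold and its SE, red marks an adjusted p under 0.05, and triangles give the bound for hosts with 0 reads in 1 line, scaled by total reads. There are 6 red marks on the left and 1, Cdk12, on the right.

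Between B16F10 and Melan-a, 1 kinase host of 18 tested was called, Cdk12, which fell in B16F10. Cdk12 had 16, 11 and 11 reads in B16F10, against 44, 56 and 35 in Melan-a. In RPM that is 703 ± 84.2 in B16F10 and 1605 ± 190 in Melan-a, with no overlap (log2 fold -1.28 ± 0.32 as SE, with edgeR adjusted p = 0.0311). The 1 host is 5.56% of those tested, against 7.13% of all 898 hosts tested (2.78% higher and 4.34% lower), so the share is no larger than in the table. None rose by edgeR, by DESeq2 or by limma-voom. Of the 18, 6 had an unadjusted p under 0.05, a threshold at which the share of all hosts was not counted. The median log2 fold of the 18 was -0.18, against -0.0015 for all hosts tested. The Cdk12 call was lost under 7 of 14 alternatives: with no filter, under DESeq2, and without any B16F10 library or the first or the third Melan-a library (adjusted p between 0.0167 and 0.163). Its fold stayed between -1.39 and -1.17 in all of them.

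In the MAPK cascade of the melanocyte lines, Map3k3, which encodes MEKK3, an activator of the ERK5 branch, had 6, 5 and 3 reads in B16F10, against 20, 19 and 15 in Melan-a (log2 fold -1.40 ± 0.50 as SE, with adjusted p = 0.112). Map2k2, which encodes MEK2, had 6, 6 and 4 reads in B16F10, against 0, 0 and 2 in Melan-a (log2 fold 3.26 ± 1.23 as SE, with adjusted p = 0.132). Map2k1 had 37, 22 and 22 reads in B16F10, against 21, 33 and 25 in Melan-a, or 1488 ± 312 RPM against 938 ± 87.3 RPM (log2 fold 0.57 ± 0.32 as SE, with adjusted p = 0.341). The Map2k2 fold was 5.72 without the third Melan-a library, which held both Melan-a reads (adjusted p = 0.118). That fold was fitted against 0 reads and is no bound. The libraries of the 2 lines did not overlap in RPM for any of the 3, and none passed. These hosts were named for a small p or many reads, and how many of all hosts did not overlap was not counted. MEK1 and MEK2 act at the same tier, directly above ERK.

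Of the other melanocyte hosts with many reads, Cdk15, a relative of Cdk14 that had reads in this table alone, had 15, 11 and 22 reads in B16F10, against 28, 37 and 21 in Melan-a (log2 fold -0.28 ± 0.37 as SE, with adjusted p = 0.743). Camk2d, a subunit of calmodulin-dependent kinase II, had 10, 8 and 14 reads in B16F10, against 11, 10 and 9 in Melan-a (log2 fold 0.63 ± 0.49 as SE, with adjusted p = 0.505). Prkcsh had 10, 2 and 4 reads in B16F10, against 21, 12 and 13 in Melan-a (log2 fold -1.02 ± 0.61 as SE, with adjusted p = 0.373). Stk35 (19, 14 and 11 reads in B16F10, 18, 12 and 21 in Melan-a) and Stk3 (10, 11 and 16 reads in B16F10, 11, 24 and 23 in Melan-a) overlapped between lines, with adjusted p of 0.781 and 0.931. The Stk3 fold of -0.09 turned positive with scaling by total reads (0.015). Cdk17, a kinase of the PCTAIRE group, was the 1 host found in a single melanocyte line: it had 0 reads in B16F10, against 2, 8 and 5 in Melan-a, at least 3.20-fold lower in B16F10 and not tested. That is 1 of 53 kinase hosts (1.89%), against 0.557% of all hosts with reads, and 0 of 53 were found in B16F10 alone, against 0.351%. Of single circRNAs, 1 of 131 (0.763%) was found in B16F10 alone, against 0.373% of all 8857, and 1 of 131 in Melan-a alone, against 0.497%.

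Of 16 kinase circRNAs tested between B16F10 and Melan-a, 3 were called (18.8%, against 10.9% of all 874 tested). The Prkce circRNA of exons 4 to 6 was higher in B16F10 (6.25%, against 5.03% of all), and the Cdk12 circRNA of exons 5 to 7 and the Cdk8 circRNA of exons 2 to 4 were lower (12.5%, against 5.84%). The Cdk12 circRNA had 16, 11 and 11 reads in B16F10, against 42, 56 and 35 in Melan-a (log2 fold -1.22 ± 0.34 as SE, with adjusted p = 0.033) and made up nearly all reads of its host. The call was lost under 7 of 14 alternatives, among them those without any B16F10 library or the first Melan-a library (adjusted p between 0.0228 and 0.258).

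Cdk8 and Cdk19 encode the alternative kinase subunits of the Mediator complex, which links transcription factors to RNA polymerase II. Both genes gave a circRNA of exons 2 to 4 and one of exons 3 to 4, and each gave others that the other gene did not share. The exon 2 to 4 circRNAs of both genes hold 328 bases from codons 43 to 152, and the exon 3 to 4 circRNAs of both hold 252 bases from codons 69 to 152, a multiple of 3. Of the junctions, 19 of 30 printed bases match between the exon 3 to 4 junctions of Cdk8 and Cdk19, and 21 of 30 between the exon 2 to 4 junctions. How the callers treated reads that fit both genes is not given in the sources used here.

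Cdk8 had more reads than any other kinase host in both tables. It had 30, 41 and 77 reads in 4T1, against 118, 149 and 190 in Eph4-ev, or 1988 ± 298 RPM against 2793 ± 563 RPM (log2 fold -0.64 ± 0.24 as SE, with adjusted p = 0.0769). In the melanocyte lines it had 24, 24 and 25 reads in B16F10, against 50, 81 and 46 in Melan-a, or 1371 ± 154 RPM against 2079 ± 302 RPM (log2 fold -0.71 ± 0.28 as SE, with adjusted p = 0.149). The lines did not overlap in either lineage, and neither difference passed; the mammary one passed under 1 of 14 alternatives, the fit with no filter (adjusted p = 0.0291).

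Cdk19 had the opposite sign. It had 20, 14 and 17 reads in 4T1, against 13, 9 and 0 in Eph4-ev, or 818 ± 452 RPM against 139 ± 130 RPM (log2 fold 2.33 ± 0.81 as SE, with adjusted p = 0.0615). It had 6, 5 and 5 reads in B16F10, against 0, 0 and 3 in Melan-a (log2 fold 2.75 ± 1.20 as SE, with adjusted p = 0.204). The lines did not overlap in either lineage. Under 9 of 14 alternatives the mammary difference passed (adjusted p between 0.00635 and 0.248), and under 0 of 12 did the melanocyte one (0.118 to 0.456). Without the third Melan-a library, which held all 3 Melan-a reads, the melanocyte fold was 5.71; a fitted fold against 0 reads is no bound. The folds of Cdk8 and Cdk19 differed between lineages by 0.03 (SE 0.40) and -0.50 (SE 1.31) on the log2 scale, mammary minus melanocyte, with adjusted p of 1.00 and 0.900.

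Of the single junctions of these genes, 1 was called in each lineage. The Cdk19 circRNA of exons 3 to 4 had 12, 10 and 9 reads in 4T1, against 2, 3 and 0 in Eph4-ev, with no overlap (log2 fold 3.61 ± 0.97 as SE, with adjusted p = 0.0276). It had 4, 2 and 3 reads in B16F10, against 0 in each Melan-a library, at least 4.69-fold higher in B16F10 and not tested. The mammary call was lost under 5 of 12 alternatives, those without the first or second 4T1 library or any Eph4-ev library (adjusted p between 0.00697 and 0.105). The Cdk8 circRNA of exons 2 to 4 had 12, 14 and 13 reads in B16F10, against 37, 74 and 33 in Melan-a (log2 fold -1.26 ± 0.36 as SE, with adjusted p = 0.0365), a call lost under 9 of 14 alternatives, among them those without any B16F10 library or the first or second Melan-a library (0.0262 to 0.199). The Cdk8 circRNA of exons 3 to 6 had 9, 9 and 10 reads in B16F10, against 8, 5 and 13 in Melan-a (log2 fold 0.64 ± 0.55 as SE, with adjusted p = 0.55). In the mammary lines neither Cdk8 circRNA passed, with log2 folds of -0.52 (SE 0.28) for exons 2 to 4 and -1.05 (SE 0.43) for exons 3 to 6.

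**Figure D4:**
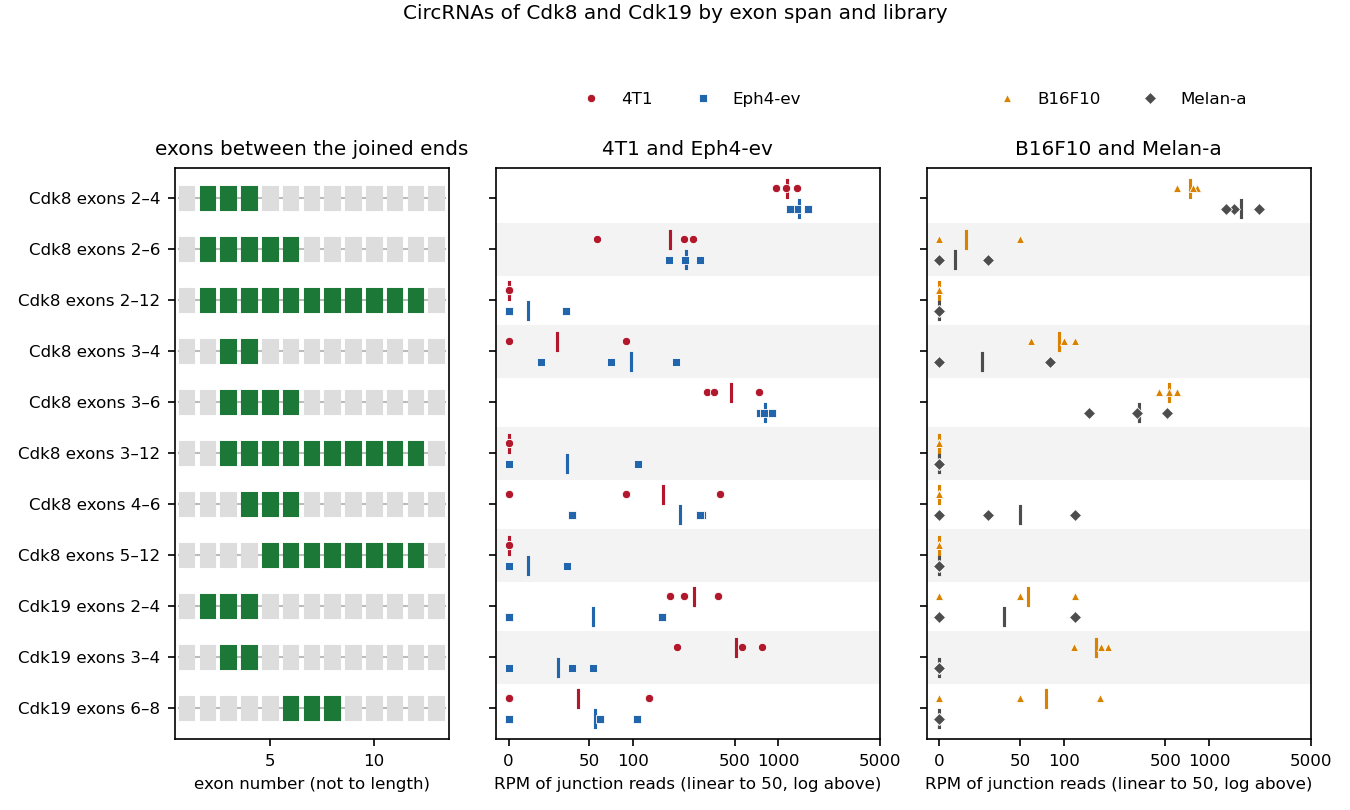
CircRNAs of Cdk8 and Cdk19 by exon span (left panel, exons between the joined ends in green) and their RPM of junction reads in each library (horizontal axes, linear to 50 and logarithmic above), with 4T1 above Eph4-ev and B16F10 above Melan-a; short vertical lines are means of 3 libraries. The exon 3 to 4 circRNA of Cdk19 lies higher in each tumour line library than in any library of its non-tumour line, and the exon 2 to 4 circRNA of Cdk8 lies lower in each B16F10 library than in any Melan-a library.

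The share of a host's reads that its leading circRNA takes was compared for the 10 host and lineage pairs with 2 or more circRNAs and at least 10 reads in every library, a comparison chosen after values were seen. The Cdk8 circRNA of exons 2 to 4 took 50%, 58.3% and 52.0% of the Cdk8 reads in B16F10, against 74.0%, 91.4% and 71.7% in Melan-a, with no overlap (exact permutation p = 0.1, adjusted p = 0.4 over the 10). In the mammary lines it took 58.2% ± 10.8 in 4T1, against 50.04% ± 6.60 in Eph4-ev (SD, n = 3 each; exact permutation p = 0.3). The Csnk2a2 circRNA of exons 2 to 11 took 62.3% ± 6.60 in 4T1, against 83.7% ± 13.2 in Eph4-ev, with no overlap (exact permutation p = 0.1, adjusted p = 0.4). The Stk3 circRNA of exons 2 to 4 took 45.3% ± 18.7 in 4T1, against 76.1% ± 8.87 in Eph4-ev, with overlap (exact permutation p = 0.2). None of the 10 passed, and the smallest p this test allows is 0.1.

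Prkce was the 1 kinase host called by the test of a difference between lineages. It encodes protein kinase C epsilon, an enzyme that diacylglycerol activates without calcium. Its circRNAs had 6, 10 and 10 reads in 4T1, against 31, 30 and 47 in Eph4-ev, or 391 ± 170 RPM against 663 ± 164 RPM (log2 fold -0.98 ± 0.51 as SE, with adjusted p = 0.213). They had 30, 35 and 14 reads in B16F10, against 13, 20 and 23 in Melan-a, or 1468 ± 614 RPM against 676 ± 210 RPM (log2 fold 1.03 ± 0.40 as SE, with adjusted p = 0.147). The lines overlapped in both lineages, and neither difference passed alone. The test of the difference itself, an edgeR interaction over all 12 libraries, gave -2.06 on the log2 scale, mammary minus melanocyte (SE 0.66, adjusted p = 0.0471). It covered 32 kinase hosts, of which this 1 (3.12%) was called, against 9.69% of all 1341 hosts tested (4.1% with a positive and 5.59% with a negative difference). The call was lost under 13 of 20 alternatives (adjusted p between 0.0256 and 0.160), among them those with RLE factors, total reads, no filter, limma-voom and thinning to equal depth, and those without the third 4T1, any Eph4-ev, the first or second B16F10 or the first Melan-a library.

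The 3 most abundant Prkce circRNAs did not share 1 pattern. The circRNA of exons 4 to 6 had 3, 6 and 0 reads in 4T1, against 7, 0 and 3 in Eph4-ev, with overlap. In the melanocyte lines it had 8, 7 and 4 reads in B16F10, against 0, 1 and 0 in Melan-a, with no overlap (log2 fold 4.33 ± 1.24 as SE, with adjusted p = 0.0365). That call was lost under 8 of 12 alternatives, among them those without any B16F10 library or the first or the third Melan-a library (adjusted p between 0.0337 and 0.273). The circRNA of exons 8 to 11 had 0, 0 and 4 reads in 4T1, against 13, 13 and 11 in Eph4-ev (log2 fold -2.49 ± 1.05 as SE, with adjusted p = 0.134), and 15, 22 and 8 reads in B16F10, against 9, 16 and 10 in Melan-a (log2 fold 0.95 ± 0.47 as SE, with adjusted p = 0.237). The lines did not overlap in RPM for it in either lineage. In the melanocyte lines the gap lay between the third B16F10 library (8 reads) and the second Melan-a library (16 reads). It was smaller than the 59.9 RPM that 1 read was worth in that B16F10 library. The circRNA of exons 4 to 7, which starts at the same exon as that of exons 4 to 6, overlapped in both lineages (log2 fold -1.28, SE 0.67, in 4T1 and 0.25, SE 0.82, in B16F10).

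**Figure D5:**
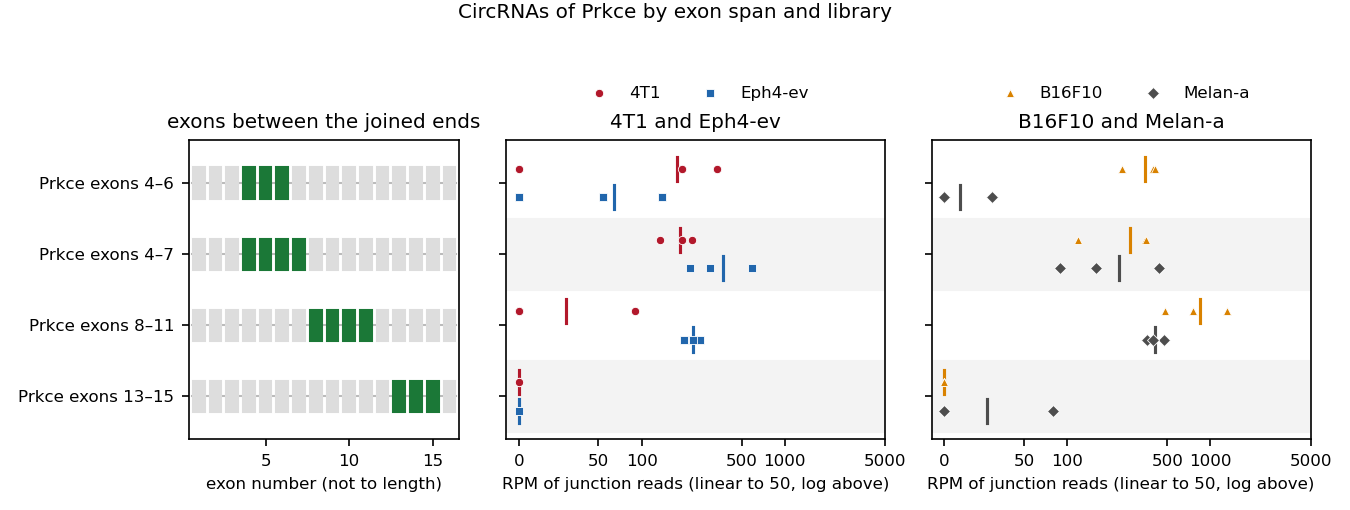
CircRNAs of Prkce by exon span (left panel, exons between the joined ends in green) and their RPM of junction reads in each library (horizontal axes, linear to 50 and logarithmic above), with 4T1 above Eph4-ev and B16F10 above Melan-a; short vertical lines are means of 3 libraries. The exon 4 to 6 circRNA lies higher in each B16F10 library than in any Melan-a library, and the exon 8 to 11 circRNA lies lower in each 4T1 library than in any Eph4-ev library.

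Map4k2, which had too few reads over the 12 libraries to enter that interaction test, entered it under 11 alternatives, the fit with no filter and 10 that left out a library, and was called in each (adjusted p between 0.00689 and 0.0379). Map4k2 had 1, 4 and 0 reads in B16F10, against 0 in each Melan-a library, so each lineage had a line at 0 and no size is given for the difference. Leaving out a library lowers the number of libraries in which the filter asks for reads. The fits also share most of their libraries, so the 11 calls are not separate support.

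The next kinase hosts by the interaction test did not pass: Nek9 (2.35, SE 1.03, adjusted p = 0.146), Camk2d (-2.60, SE 1.16, adjusted p = 0.153) and Csnk2a2 (2.92, SE 1.40, adjusted p = 0.189), all mammary minus melanocyte on the log2 scale. Camk2d passed under 2 of 20 alternatives, after thinning to equal depth (-5.60, adjusted p = 0.0185) and without the third 4T1 library, the 1 that held 4T1 reads (-6.10, adjusted p = 0.0495). The Csnk2a2 value lay between 1.69 under limma-voom and 5.42 without the third B16F10 library, and that of Nek9 was 1.19 without the second 4T1 library. The values of -6.10 for Camk2d and 5.42 for Csnk2a2 were fitted with a line at 0 reads (4T1 and B16F10). They are no bound and give no size. The Camk2d value of -5.60 after thinning rests on at most 4 reads in 4T1, all from the third library, and is not read as a size either. Nek9 had 3, 9 and 7 reads in B16F10, against 8, 24 and 15 in Melan-a (log2 fold -0.70, SE 0.57). Camk2d had 0, 0 and 4 reads in 4T1, against 9, 5 and 14 in Eph4-ev, too few for the mammary test, and Csnk2a2 had 0, 0 and 1 reads in B16F10, against 0, 3 and 4 in Melan-a.

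Kinases outside the symbol pattern and the phosphatases that oppose them were read from lists of 128 and 48 genes. In the mammary lines 39 other serine/threonine kinases were tested, of which 2 rose and 3 fell in 4T1, with a median log2 fold of 0.25, against -0.09 for all hosts tested. The 5 are 12.8% of those tested, against 17.5% of all hosts. Vrk1, a kinase of chromatin and mitosis, had 21, 24 and 42 reads in 4T1, against 1, 8 and 2 in Eph4-ev (log2 fold 3.96 ± 0.62 as SE, with adjusted p = 0.000468). Mast4 also rose, and Hipk2 and Ripk2 were among those that fell. Of 11 phosphatase hosts tested, Phlpp1 (log2 fold 2.48, SE 0.30) and Ppp6r3 (3.18, SE 0.83) rose in 4T1 and none fell by edgeR, DESeq2 or limma-voom (18.2% called, against 17.5% of all hosts). In the melanocyte lines 22 other kinases were tested and none was called by edgeR, with 3 at an unadjusted p under 0.05; DESeq2 called 0 and limma-voom called 1, Tlk1, higher in B16F10. Of 4 phosphatase hosts Ppm1h fell in B16F10 (log2 fold -2.08 ± 0.50 as SE, with adjusted p = 0.0224), where 7.13% of all hosts were called. That is a single host, and DESeq2 called 0 of the 4.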

How the data were processed

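CircRNA libraries of 4 mouse cell lines, 3 each, were analysed from 1 table per lineage. Per the labels' protocols, RNase R removed linear RNA and the callers were CIRI2, which reads BWA-MEM output, and CIRCexplorer2, which reads TopHat output. The submitters' processing notes name mm10 as the build. The way the callers' reads were combined and filtered is not given in the sources used here. The deposited count columns hold raw junction reads per circRNA, per the file headers. The RPM columns were scaled by the authors to each column's total: RPM gave whole reads within 0.01 for 100% of values, so the counts were tested and RPM describes levels.

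Counts of circRNAs with a single named host were summed per host, and levels are these counts scaled to the column total (RPM). Each lineage was fitted alone, on the whole table, in R 4.3.3 by the quasi-likelihood F test of edgeR 4.0.16 after filterByExpr (min.count 5, min.total.count 10) and TMM scaling, with Benjamini-Hochberg adjustment and a threshold of 0.05. The SE comes from the F statistic. The difference between lineages is the interaction over all 12 libraries. A host or circRNA with at least 2 reads in each library of 1 line and 0 in the other counts as found in 1 line alone, and its fold is a bound against 3 reads over the line at 0, scaled by total reads. Sums over hosts were compared with exact permutation tests in scipy 1.17.1. Intervals at 95% and floors cover counting error only, since no molecular identifiers are named. Exons, codons and junctions come from GENCODE M21, and codon positions are those the circRNA's exons cover. CircRNAs with several hosts stayed out of the host sums. Shares of all hosts at an unadjusted p under 0.05, or without overlap between lines, were not counted.

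Alternatives were RLE factors or total reads in place of TMM, a minimum count of 10 or no filter, DESeq2 1.42.0, limma-voom 3.58.1 with quality weights, thinning to equal depth, a replicate block and leaving out each library. The number of alternatives given for a host or circRNA covers only the fits that tested it. Named with values are the called hosts and circRNAs, the 8 hosts with the smallest p, the 8 most abundant hosts, hosts found in 1 line alone, and the 4 hosts with the smallest interaction p. Of the 5 most abundant circRNAs and the uncalled circRNAs of these hosts, only some are given. Other members named were chosen after their values were seen. The members and lists were chosen with earlier results of these data known. A host and a gene of the kinase list that the rules would name are not reported here, but stay in the fits and counts.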

Additional observations from a re-analysis of the deposited data

Results flagged for a closer look

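Prkce stood out because its difference between tumour and non-tumour line went one way in the mammary lines and the other way in the melanocyte lines. The mammary log2 fold minus the melanocyte log2 fold was -2.06 by the edgeR interaction (adjusted p = 0.0471). All but 1 of the 4T1 libraries and all but 1 of the B16F10 libraries lay outside the range of their non-tumour line. The second 4T1 library and the third B16F10 library were the ones inside.

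A pair of Nek7 junctions that the table assigns to Nek7 and to a second gene together lies outside the host sums. They held 2, 2 and 6 reads in 4T1, against 1, 4 and 0 in Eph4-ev, a pooled ratio of 4.18 with a 95% counting interval of 1.30 to 15.6. Each 4T1 library lay above each Eph4-ev library in RPM (exact permutation p = 0.1, the smallest possible). Both were at 0 in the melanocyte lines.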

How the results depend on the processing

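Calls on the kinase hosts and circRNAs rest on few reads, and most changed under some setting; the cause was not tested. In the mammary lines, hosts lower in 4T1 numbered 3, against 1 with a minimum count of 10 and 1 after thinning; circRNAs numbered 3 higher and 2 lower, against 1 lower with a minimum count of 10, 1 lower under DESeq2, and 1 higher and 0 lower after thinning. In the melanocyte lines, hosts lower numbered 1, against 0 with no filter and 0 under DESeq2; circRNAs numbered 1 higher and 2 lower, against 0 and 0 with no filter, 0 higher with a minimum count of 10 and under limma-voom, 0 lower under DESeq2, and 0 higher and 1 lower after thinning. The 1 host lower between lineages, Prkce, was 0 under RLE factors, total reads and limma-voom; it was also lost with no filter (adjusted p = 0.0539) and after thinning (0.0920), where Map4k2 and Camk2d were called in its place. Leaving out 1 library gave 1 to 3 hosts higher and 0 to 3 lower in 4T1, 1 to 2 circRNAs higher and 0 to 2 lower, 0 to 1 hosts lower in B16F10, 0 to 1 circRNAs higher and 0 to 2 lower, and 0 to 2 hosts lower between lineages. Without Cdk8 the summed RPM of B16F10 minus Melan-a was 412, against -296, and that of 4T1 minus Eph4-ev 2706, against 1901. Cdk8 was lower in each tumour line, so both shifts follow from leaving it out.

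Signs that turned were those of uncalled folds near 0. Cdk12 in 4T1 was 0.032 after thinning and -0.77 to 0.025 with 1 library left out. Stk3 in 4T1 was -0.10 with no filter and -0.12 to 0.27 with 1 library left out, and in B16F10 0.015 with total reads and -0.33 to 0.18. The Stk35 circRNA was -0.13 to 0.61, the Cdk14 circRNA of exons 13 to 14 -0.21 with no filter and -0.55 to 0.59, and the Prkce circRNA of exons 4 to 7 -0.17 after thinning and -0.16 to 1.05 with 1 library left out.

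Replicate numbers showed no sign of pairing the libraries: deviations of same-numbered libraries correlated between -0.0889 and 0.0204, and not every library correlated best with its own number. The deviations were taken from means of 3 libraries with few reads per host, so this check could miss a shared batch. With a replicate block, 3 hosts were higher and 1 lower in 4T1, 2 circRNAs higher and 1 lower, 0 hosts higher and 1 lower in B16F10, 0 circRNAs higher and 0 lower, and 0 hosts higher and 0 lower between lineages. The Nek7 host call was lost with this block, so the 3 hosts higher in 4T1 were not the same 3 as in the main fit. Of the values for single hosts and circRNAs under all settings, 637 kept sign and call, 91 lost the call, 12 gained one and 17 turned. Only a called value can lose a call, and the 637 include uncalled folds that stayed uncalled. The 91 are therefore a larger share of the refits of called results than of all values.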
